A study of Homo sapiens with 48 samples.

Results

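The Mediator kinase module genes are the 7 genes CDK8, CDK19, CCNC, MED12, MED12L, MED13 and MED13L. They were taken by symbol from a table of read counts with 61815 genes, and all 7 were among the 20009 genes that had enough counts to be tested. The counts came from 48 RNA-Seq libraries of 22Rv1, an established human line of castration-resistant prostate cancer, and of 5 lines made from it. Lines, serum and treatment define 16 groups with 3 biological replicates each. Rv1-WT is the parental line. Rv1-Luc carries a lentivirus for firefly luciferase, and its CDK8 and CDK19 genes are not edited. The 4 dKO lines descend from cells in which CRISPR/Cas9 disrupted both CDK8 and CDK19, and a lentivirus then supplied a single kinase. That kinase was wild-type CDK8 in dKO-8, kinase-dead D173A CDK8 in dKO-8M, wild-type CDK19 in dKO-19 and kinase-dead D173A CDK19 in dKO-19M. The CDK8 constructs were put into dKO cells that already held an empty vector, so the CDK8 and CDK19 arms differ in that as well. Each line received 0.1% DMSO as vehicle or 500 nM SNX631, an inhibitor of the CDK8 and CDK19 kinases, for 72 hours. Rv1-WT and Rv1-Luc were treated both in fetal bovine serum (FBS) and in charcoal-stripped serum (CSS), which is low in androgen, and the dKO lines in FBS only. The CSS cultures were also passaged once more in CSS and seeded more densely before treatment, so serum, passage and density cannot be told apart.

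Mediator is the large complex that passes signals from transcription factors bound at enhancers to RNA polymerase II. Its kinase module is a separable unit in which CDK8 or its paralog CDK19 is paired with cyclin C (CCNC), activated through MED12 or MED12L, and tethered to the Mediator core by MED13 or MED13L. CDK8 and CDK19 exclude each other within a module, as do the members of each MED pair, and prostate cancer is known for high CDK19.

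By design the introduced kinases differ from the reference transcripts at few coding bases, and these are shown because they bear on what a gene count can report. The Cas9 lesions in the edited genes are not known from these data. The introduced cDNAs were designed to escape Cas9 by synonymous changes at the guide sites. The letters come from the cloning oligos of the study, set beside the GENCODE v29 transcripts, with the changed bases in capitals.
CDK8 transcript, coding bases 30 to 79, exon 1, chr13:26254671-26254720, plus strand: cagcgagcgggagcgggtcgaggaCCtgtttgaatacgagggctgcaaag
CDK8 re-coded: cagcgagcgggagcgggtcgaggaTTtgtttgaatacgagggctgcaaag
CDK19 transcript, coding bases 280 to 334, across the junction of exons 3 and 4, chr6:110667556-110670466 with the intron, minus strand: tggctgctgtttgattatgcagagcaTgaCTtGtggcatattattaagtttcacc
CDK19 re-coded: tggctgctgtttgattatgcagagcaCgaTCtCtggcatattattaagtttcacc
Counted from 1 at the first coding base, with the base of the transcript first, the substitutions are C54T and C55T in CDK8, and T306C, C309T, T310C and G312C in CDK19. All of them leave the amino acid unchanged. The D173A change replaces the aspartate of the DMG motif in the catalytic site. Codon 173 is shown in capitals in its unmutated form, in a stretch that crosses the junction of exons 5 and 6 in both genes.
CDK8 codon 173, chr13:26382862-26385227 with the intron, plus strand: gtaaaaattgctGACatgggctttgcc
CDK19 codon 173, chr6:110632145-110638658 with the intron, minus strand: gtcaaaatagctGACatgggttttgcc
Coding reads away from these letters and from the Cas9 lesions read the same from an edited endogenous gene and from the introduced cDNA. A gene count therefore adds the 2 sources, does not show whether the endogenous gene still makes protein, and is no check of the knockout.

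In GRCh38, CDK8 lies on chromosome 13 (26254104 to 26405238, plus strand), CDK19 on chromosome 6 (110609978 to 110815958, minus strand) and CCNC on chromosome 6 (99542380 to 99568973, minus strand). MED12 lies on chromosome X (71118556 to 71142454, plus strand), MED12L on chromosome 3 (151085697 to 151437072, plus strand), MED13 on chromosome 17 (61942605 to 62065282, minus strand) and MED13L on chromosome 12 (115953872 to 116277719, minus strand). The longest annotated transcripts run from 2.47 kb for CCNC to 14.6 kb for MED13L. MED12L holds 6 genes on its opposite strand, and the libraries were strand-specific. Fractional counts, a sign of reads shared with another place, occurred for MED13 in 35.4% of libraries, MED12 in 27.1%, CCNC in 12.5% and CDK19 in 2.08%, and in no library for the other 3 genes.

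The libraries held between 13.2 and 31.5 M counts (median 21.4 M). Of markers of prostate luminal cells, KRT18 (385 to 837 CPM), KRT8 (418 to 3410 CPM) and HOXB13 (173 to 317 CPM) were well expressed in every library. FOLH1 ran from 4.90 to 548 CPM, and KLK3, which encodes PSA, was low throughout at 0.409 to 11.6 CPM. 1 library, dKO-19M vehicle replicate 1, stood apart. Its chi-square per gene was 17.0 and 17.7 against the other 2 replicates, while the other 46 replicate pairs had 1.28 to 9.69. In it, genes with transcripts of 8 kb or more were lower by 0.45 on the log2 scale relative to genes under 2 kb. This is the difference between the medians of the 2 classes, taken as deviations from the mean of the other 2 replicates. In the 45 libraries of the other groups it ran from -0.14 to 0.10. MED12L, MED13 and MED13L have transcripts of 8 kb or more. MED12L was also lowest in this library, at 1.56 CPM against 2.68 and 1.97 CPM in its replicates. Every result that uses this library, or the spread it adds, is given with it and from a fit of the other 47 libraries where the call differed. That fit was chosen after the data were seen. Each comparison was also refitted without each of its own libraries in turn, and calls that did not hold in all of these fits are named beside the result.

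Levels are given as CPM, counts scaled to library size by the TMM method, and as CPM per kb of the longest annotated transcript wherever 1 gene is set against another. In Rv1-WT in FBS under vehicle, CCNC stood at 28.2 and CDK19 at 23.9 CPM per kb. MED13 followed at 17.3, MED13L at 11.6, CDK8 at 8.77, MED12 at 7.59 and MED12L, the paralog of MED12, at 0.741 CPM per kb. Dividing by the union of all annotated exons instead kept MED12L last at 0.631 CPM per kb but put CDK19 first at 19.9, ahead of MED13 at 14.3 and CCNC at 12.1. The order of CCNC, CDK19 and MED13 thus depended on the length used, and which isoforms these cells make was not tested. MED12L rested on 38 to 152 counts per library, and its median coefficient of variation between replicates was 10.9%, against 2.83% to 4.34% for the other 6 genes.

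**Figure D1:**
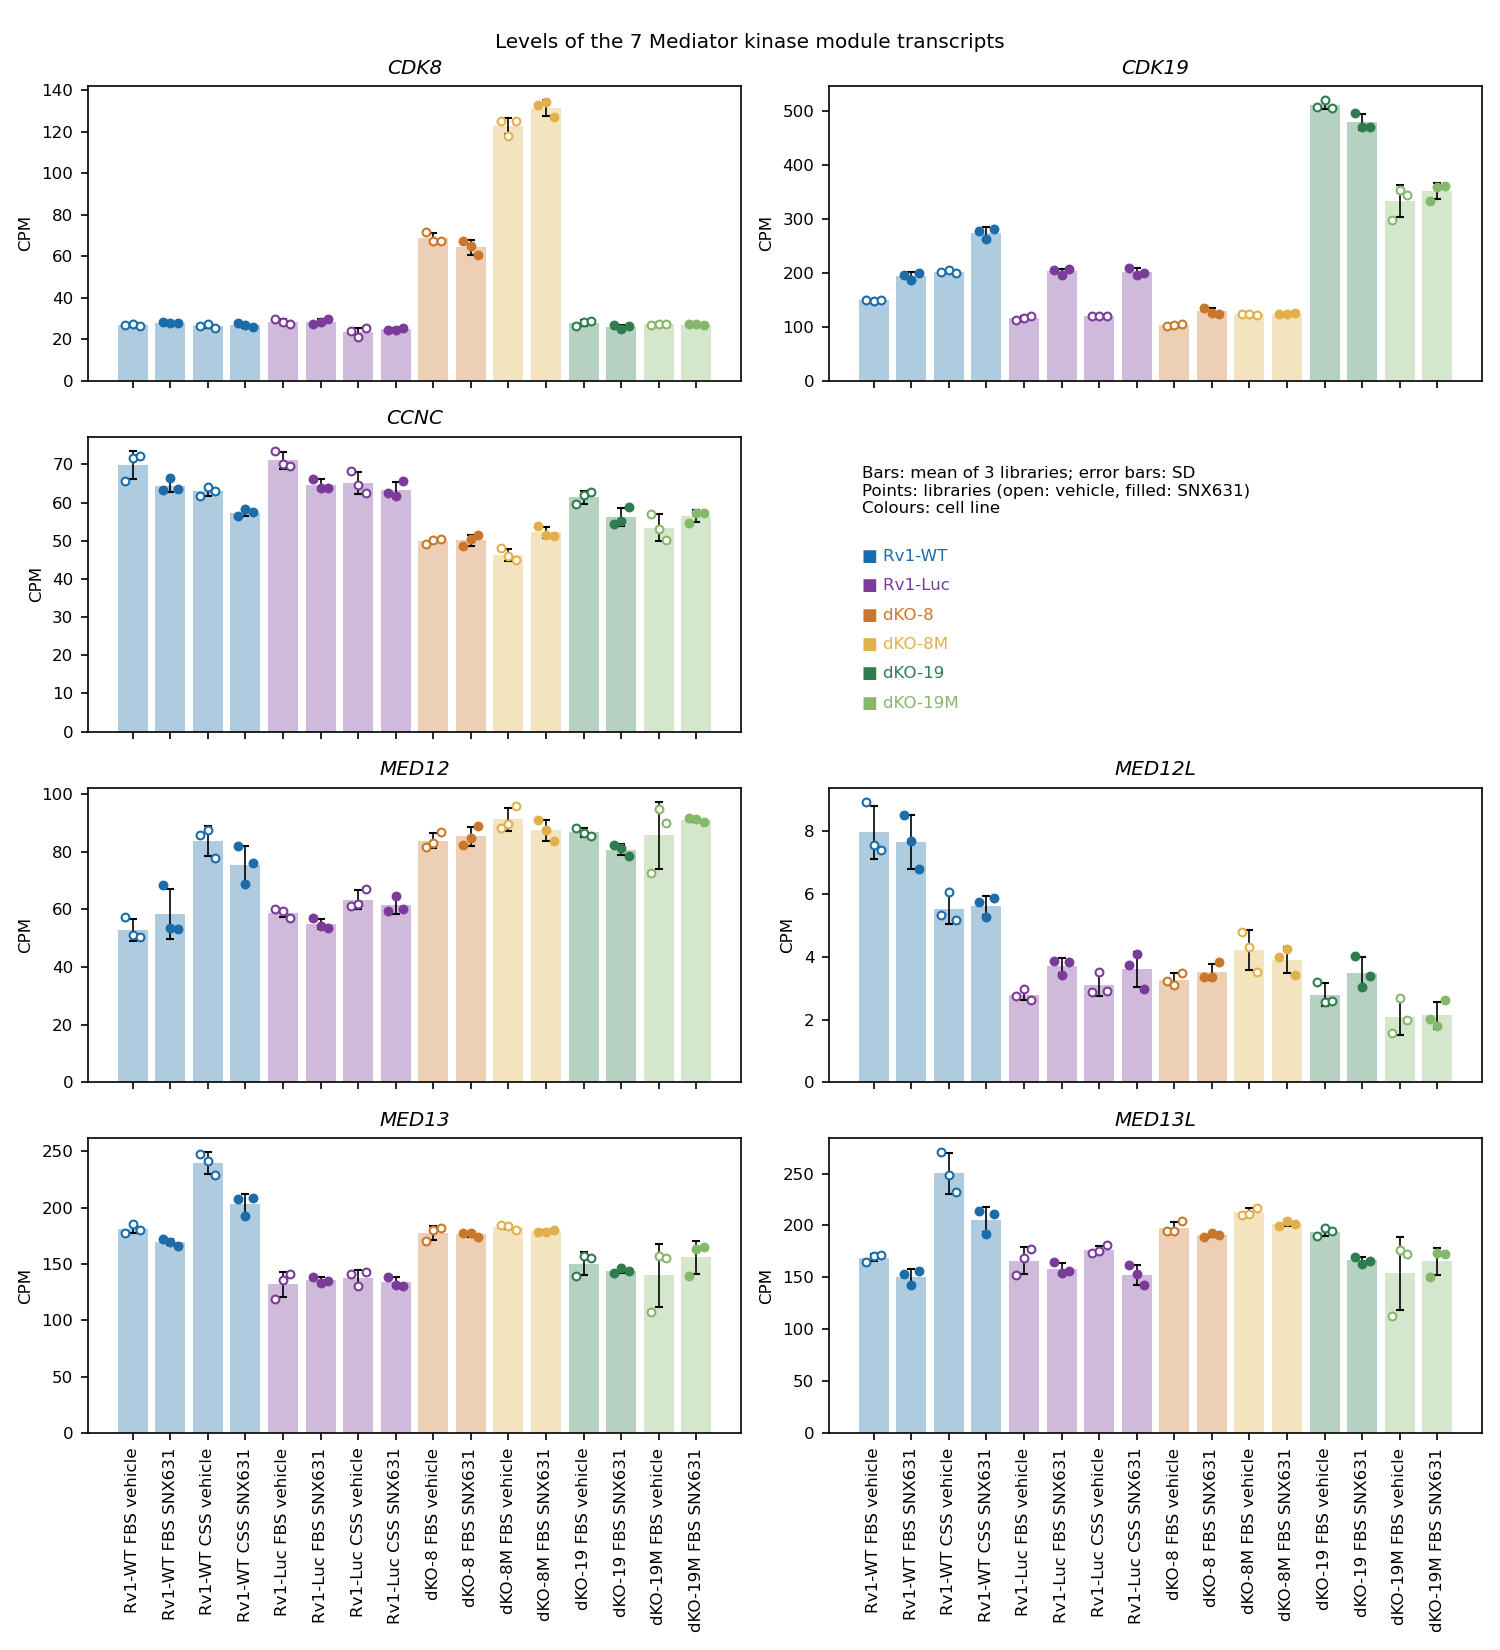
Level of each module gene in the 16 groups, in TMM-scaled CPM on linear axes that start at 0. Bars are means of 3 libraries, error bars SD, and points the libraries (open for vehicle, filled for SNX631). CDK8 stands above 60 CPM only in dKO-8 and dKO-8M, CDK19 is highest in dKO-19, MED12L is highest in Rv1-WT, and a single low library is seen for MED13 and MED13L in dKO-19M under vehicle.

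CDK8 varied little outside the lines that received CDK8. Over the 8 groups of unedited lines its group means differed by at most 1.22 times, whereas over all 16 groups they ran from 23.4 ± 1.98 CPM (SD, n = 3) in Rv1-Luc in CSS under vehicle to 131 ± 3.89 CPM in dKO-8M under SNX631. Of the 15 pairs of neighbours in the order of CDK8 levels, 12 had overlapping libraries. The 3 gaps set apart dKO-8M under SNX631, dKO-8M under vehicle, and the dKO-8 groups from all the rest. CDK19 was spread more widely, from 103 ± 2.05 CPM in dKO-8 under vehicle to 510.4 ± 7.84 CPM in dKO-19 under vehicle, and 2.35 times within the unedited lines. Of its 15 neighbouring pairs, 7 overlapped: Rv1-Luc under SNX631 in either serum, Rv1-WT in CSS under vehicle and Rv1-WT in FBS under SNX631 formed 1 chain of overlapping groups with means from 194 to 202 CPM.

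The remaining members moved over narrower ranges. CCNC group means ran from 46.4 CPM in dKO-8M to 71.1 CPM in Rv1-Luc, both in FBS under vehicle, a ratio of 1.53, with overlap in 13 of 15 neighbouring pairs. MED12 ran from 53.0 CPM in Rv1-WT in FBS to 91.3 CPM in dKO-8M, both under vehicle (14 of 15 pairs overlapping). MED12L ran from 2.07 CPM in dKO-19M to 7.97 CPM in Rv1-WT in FBS, both under vehicle, and all 4 Rv1-WT groups stood above all other groups. MED13 ran from 132 to 239 CPM and MED13L from 151 to 250 CPM, and for both the highest group was Rv1-WT in CSS under vehicle. MED13 and MED13L had overlapping libraries in 11 and 12 of their neighbouring pairs.

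The balance between the 2 kinases differed among lines, sera and treatments. In Rv1-WT in FBS the CDK19 to CDK8 ratio of CPM was 5.56 under vehicle and 6.92 under SNX631, and in CSS it was 7.65 and 10.2. Per kb, the lowest and highest of these correspond to ratios of 2.72 and 4.99. In Rv1-Luc the CPM ratio went from 4.08 to 7.12 in FBS and from 5.11 to 8.10 in CSS, and per kb the lowest and highest were 2.00 and 3.96. The dKO lines lay on either side: 1.50 in dKO-8, 1.00 in dKO-8M, 18.4 in dKO-19 and 12.2 in dKO-19M, all under vehicle. Per kb these were 0.735, 0.491, 9.01 and 5.96 in that order, so CDK8 stood above CDK19 in dKO-8 and dKO-8M on that scale. The scale uses the annotated transcripts, and the lengths of the construct transcripts were not known.

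The first comparison asks what inhibition of the 2 kinases did to the transcripts of their own module. Transcripts of a gene are said below to have risen or fallen where edgeR's quasi-likelihood test gave an FDR under 0.01, and the fold change limit of the study, 1.5, is named where it was also passed. CDK19 was the member that responded: it rose under SNX631 in 5 of 8 settings, and none of the other 6 genes passed the test in any setting. In all, 5 of 56 results passed (8.93%), against 9.69% of all genes tested over the same 8 comparisons, a share close to the background, and 2 of 56 also passed 1.5-fold, against 2.45%. The share of all genes that passed was 8.79% in Rv1-WT in FBS, 17.6% in CSS, 13.2% in Rv1-Luc in FBS, 15.8% in CSS, 7.75% in dKO-8 and 13.2% in dKO-19. In the kinase-dead lines it was 0.15% in dKO-8M and 0.955% in dKO-19M.

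In Rv1-WT in FBS, the 3 vehicle libraries had 149, 148 and 150.1 CPM of CDK19 and the 3 SNX631 libraries 196, 187 and 199 CPM (log2FC = 0.38 ± 0.0438, FDR = 6.68e-10). In CSS they had 201, 205 and 200.2 CPM and 278, 261 and 281 CPM (log2FC = 0.44 ± 0.0423, FDR = 1.47e-12). Treated and untreated libraries did not overlap in either serum, and the untreated CSS libraries stood above the treated FBS libraries. In Rv1-Luc the change was larger and passed 1.5-fold: from 112, 117 and 120.0 CPM to 204, 196 and 206 CPM in FBS (log2FC = 0.80 ± 0.0429, FDR = 7.72e-23), and from 119.5, 119 and 119.6 CPM to 209, 195 and 199 CPM in CSS (log2FC = 0.75 ± 0.0430, FDR = 2.07e-21). Untreated Rv1-Luc was lower in CDK19 than untreated Rv1-WT, and treated Rv1-Luc in FBS overlapped treated Rv1-WT in FBS. The increase in Rv1-Luc exceeded that in Rv1-WT by 0.42 on the log2 scale in FBS and by 0.31 in CSS in the test of the difference itself (FDR = 5.79e-06 and 2.38e-04), which 0.65% and 4.15% of all genes passed. Between the 2 sera the SNX631 effect on CDK19 differed by 0.05 (FDR = 0.769) in Rv1-WT, with a 95% interval of -0.07 to 0.18, and by -0.05 (FDR = 0.884) in Rv1-Luc, with an interval of -0.17 to 0.07. No module gene passed in these 2 tests, and 1.38% and 0.17% of all genes did.

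In the dKO lines the change in CDK19 counts differed with the construct. In dKO-8, where CDK19 transcripts can come only from the edited endogenous gene, vehicle libraries had 101, 103 and 105 CPM and treated libraries 135, 125 and 124 CPM (log2FC = 0.31 ± 0.0440, FDR = 1.54e-07), with no overlap. In dKO-8M, with the same edited CDK19 gene but kinase-dead CDK8, vehicle libraries had 124, 123 and 122 CPM and treated libraries 124, 123 and 125 CPM, which overlap (log2FC = 0.01 ± 0.0436, FDR = 0.974). The difference between these 2 effects was 0.30 ± 0.0619 (FDR = 5.75e-04, background 3.31%). In dKO-19, where construct and edited gene are counted together, the values were 507, 519 and 505 CPM under vehicle and 496, 470.2 and 469 CPM under SNX631 (log2FC = -0.09 ± 0.0404, FDR = 0.0975). In dKO-19M they were 298, 354 and 344 CPM and 333, 359 and 360.0 CPM (log2FC = 0.08 ± 0.0408, FDR = 0.355). Neither change passed the test, and the effect in dKO-19 was lower than that in dKO-8 by 0.41 on the log2 scale (log2FC = -0.41 ± 0.0598, FDR = 1.96e-06, background 2.43%). Under vehicle the edited gene alone gave 101 to 105 CPM in dKO-8, and the total was 505 to 519 CPM in dKO-19. An equal CPM change of the edited gene would thus be a smaller log2 change in dKO-19. Its response cannot be compared between these lines. The effects in dKO-19 and dKO-19M differed by -0.17 (FDR = 0.0422), which did not pass (background 5.67%).

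**Figure D2:**
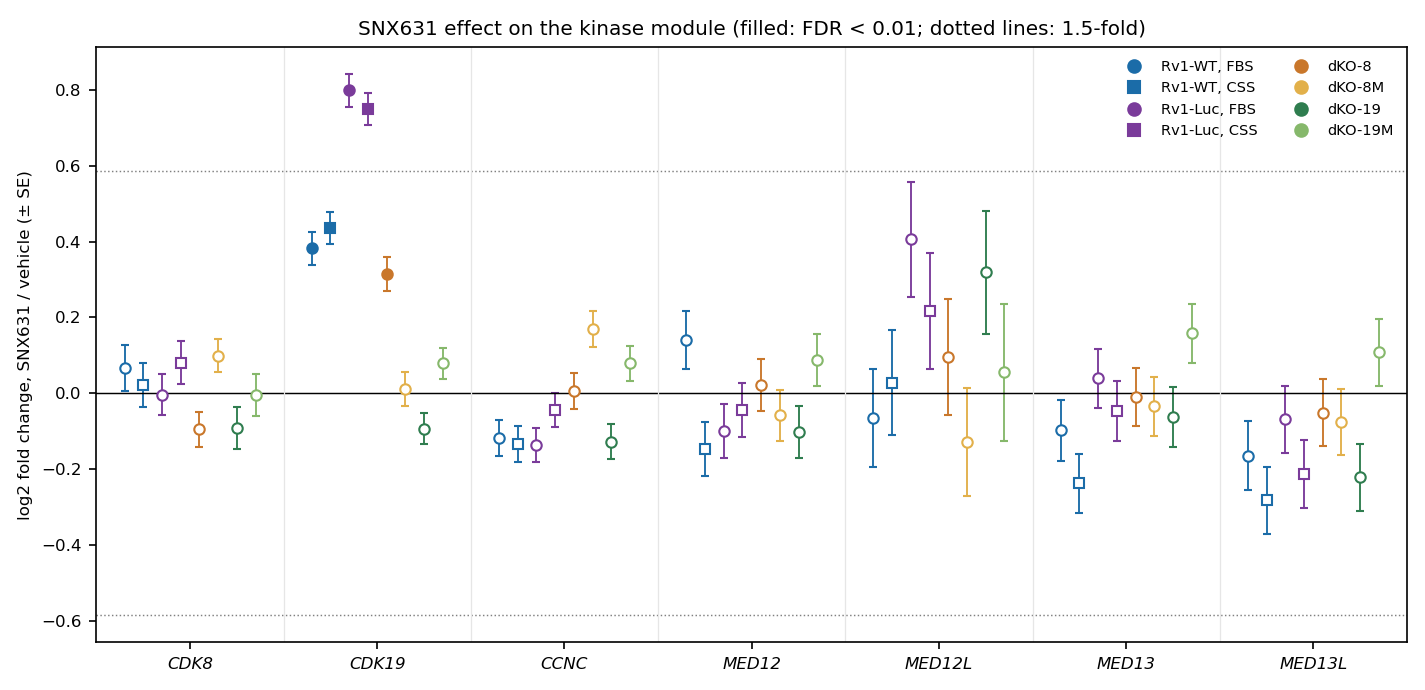
Log2 fold change of each module gene under SNX631 against vehicle in the 8 settings. Points are edgeR estimates, bars 1 SE, filled symbols FDR under 0.01, and dotted lines 1.5-fold. All 5 filled symbols belong to CDK19, in Rv1-WT, Rv1-Luc and dKO-8, with Rv1-Luc at 0.80 and 0.75.

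CDK8, the other kinase, changed by -0.09 to 0.10 over the 8 settings, and the 95% intervals together span -0.21 to 0.20, so a change of 1.5-fold lies outside all of them. In Rv1-WT in FBS, for example, CDK8 had 26.6, 27.3 and 26.4 CPM under vehicle and 28.3, 27.7 and 28.0 CPM under SNX631. CCNC, the cyclin partner, had 73.5, 70.1 and 69.6 CPM under vehicle and 66.3, 63.8 and 63.9 CPM under SNX631 in Rv1-Luc in FBS (log2FC = -0.14 ± 0.0446, FDR = 0.0204). The groups did not overlap but the result missed the limit, and it passed in the fit of 47 libraries (log2FC = -0.14 ± 0.0414, FDR = 0.00657). In Rv1-WT in CSS, CCNC had 61.8, 64.1 and 62.9 CPM and 56.4, 58.3 and 57.4 CPM (log2FC = -0.13 ± 0.0477, FDR = 0.0315), and in dKO-8M the estimate had the opposite sign (log2FC = 0.17 ± 0.0473, FDR = 0.0891). The difference between the SNX631 effects on CCNC in dKO-19 and dKO-19M also passed in that fit only (log2FC = -0.26 ± 0.0653, FDR = 0.00385). MED12 differed by -0.15 to 0.14 over the settings, with FDR from 0.129 to 0.886. MED12L had 2.75, 2.98 and 2.63 CPM under vehicle and 3.87, 3.43 and 3.82 CPM under SNX631 in Rv1-Luc in FBS, where the groups did not overlap (log2FC = 0.41 ± 0.152, FDR = 0.0484). The intervals for MED12L over all settings run from -0.42 to 0.71, so changes past 1.5-fold were not excluded at its depth.

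The paralogs MED13 and MED13L, which link the module to core Mediator, were lower under SNX631 in CSS in Rv1-WT without passing the test in the fit of 48 libraries. MED13 had 248, 242 and 229 CPM under vehicle and 208, 192 and 209 CPM under SNX631 (log2FC = -0.24 ± 0.0774, FDR = 0.0199). MED13L had 270.4, 248 and 232 CPM and 214, 192 and 211 CPM (log2FC = -0.28 ± 0.0880, FDR = 0.0152). In both cases all treated libraries lay below all vehicle libraries. The spread of both genes in that fit includes dKO-19M vehicle replicate 1, with 108 CPM of MED13 and 113 CPM of MED13L against 155 CPM or more in its 2 replicates. Without that library the estimates stayed at -0.24 (FDR = 3.15e-05) and -0.28 (FDR = 4.39e-06), and both passed. MED13L then also passed in Rv1-Luc in CSS, at -0.21 (FDR = 5.17e-04), and in dKO-19, at -0.22 (FDR = 3.01e-04). Its libraries read 173, 176 and 181 CPM under vehicle and 162, 153 and 142 CPM under SNX631 in Rv1-Luc in CSS, and 189, 198 and 195 CPM and 170.0, 163 and 166 CPM in dKO-19, with no overlap in either. The number of module results that passed went from 5 of 56 to 10 of 56 in that fit. In the settings of the added results, 19.5% of all genes passed in Rv1-WT in CSS, 14.9% in Rv1-Luc in FBS, 17.4% in Rv1-Luc in CSS and 15.2% in dKO-19. The share of all genes over all 8 comparisons was not computed for that fit, so 10 of 56 has no background beside it. None of the 5 added results reached 1.5-fold. The group mean of the MED13L to MED13 ratio was lower under SNX631 than under vehicle in all 8 settings. The libraries of the 2 treatments overlapped in 5 of these settings, and the difference was not tested. The ratio of CPM went from 0.933 to 0.889 in Rv1-WT in FBS, where they overlapped, and from 1.29 to 1.15 in dKO-19, where they did not. Per kb the ratio went from 0.668 to 0.637 in Rv1-WT in FBS and from 0.924 to 0.826 in dKO-19.

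The second comparison asks how the module responded to charcoal-stripped serum in the unedited lines. In Rv1-WT under vehicle 6 of the 7 genes changed, against 36.2% of all genes: CDK19, MED12, MED13 and MED13L rose, and CCNC and MED12L fell. Under SNX631 the same 6 genes passed in the same directions (background 31.3%). Of these 6, CDK19, MED12 and MED13L held in every fit without 1 of the 6 libraries compared. CCNC held in 2 of 6 such fits (FDR up to 0.0292), MED12L in 1 of 6 (up to 0.0609) and MED13 in 1 of 6 (up to 0.0306), and MED12L also missed the limit in DESeq2 (FDR = 0.0154). In Rv1-Luc only CDK8 changed, and it fell under vehicle (background 7.94%) and under SNX631 (background 7.06%). The 4 comparisons gave 14 of 28 results that passed, or 50.0%, against 20.6% of all genes. Each serum comparison shares libraries with the SNX631 comparisons above, and each vehicle group in FBS serves as a control for both.

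CDK19 in Rv1-WT under vehicle had 149, 148 and 150.1 CPM in FBS and 201, 205 and 200.2 CPM in CSS (log2FC = 0.44 ± 0.0436, FDR = 8.02e-13), with no overlap. Under SNX631 it rose from a higher level by 0.49 (FDR = 9.47e-15), which made Rv1-WT in CSS under SNX631 the highest of the unedited groups. In Rv1-Luc under vehicle CDK19 had 112, 117 and 120.0 CPM in FBS and 119.5, 119 and 119.6 CPM in CSS (log2FC = 0.04 ± 0.0436, FDR = 0.646), which overlap. The paralog CDK8 showed the other arrangement. In Rv1-Luc under vehicle it had 29.7, 28.3 and 27.5 CPM in FBS and 23.8, 21.3 and 25.2 CPM in CSS (log2FC = -0.28 ± 0.0551, FDR = 1.44e-04), with no overlap, and under SNX631 it fell by 0.20 on the log2 scale (FDR = 0.00984). The vehicle result missed the limit with depths thinned to 1 level (FDR = 0.0572) and with only the compared libraries in the fit (FDR = 0.0160). The SNX631 result did not pass in the fit of 47 libraries (log2FC = -0.19 ± 0.0553, FDR = 0.0102) or in 5 of 6 fits without 1 of its libraries (FDR up to 0.0916). It was also lost in DESeq2 (FDR = 0.0158), with the size factors of DESeq2 or library totals as scaling, with all genes kept, with thinned depths and with only the compared libraries. In Rv1-WT under vehicle CDK8 had 26.6, 27.3 and 26.4 CPM in FBS and 26.6, 27.2 and 25.4 CPM in CSS (log2FC = -0.02 ± 0.0601, FDR = 0.815). CCNC in Rv1-WT under vehicle had 65.6, 71.8 and 72.2 CPM in FBS and 61.8, 64.1 and 62.9 CPM in CSS, a small decrease without overlap (log2FC = -0.15 ± 0.0474, FDR = 0.00748). This call held in 1 of 6 fits without 1 of its libraries (FDR up to 0.0495), and it was lost with library totals as scaling (FDR = 0.113), all genes kept (0.0423), thinned depths (0.0447) and only the compared libraries (0.0164).

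MED12, which activates the kinase within the module, was the member with the largest serum change and the only one to pass 1.5-fold, in Rv1-WT under vehicle. It had 57.3, 51.3 and 50.3 CPM in FBS and 85.7, 87.6 and 77.9 CPM in CSS (log2FC = 0.66 ± 0.0745, FDR = 2.96e-10). Its paralog MED12L moved the opposite way, from 8.94, 7.57 and 7.40 CPM to 5.34, 6.07 and 5.18 CPM (log2FC = -0.53 ± 0.134, FDR = 7.45e-04). Neither pair of groups overlapped, and without Rv1-WT FBS vehicle replicate 1 the MED12L result missed the limit (-0.44, FDR = 0.0158). The MED12L to MED12 ratio of CPM went from 0.150 to 0.0660, or per kb from 0.0975 to 0.0428. MED13 had 178, 186 and 180.0 CPM in FBS and 248, 242 and 229 CPM in CSS (log2FC = 0.40 ± 0.0783, FDR = 5.07e-05). MED13L had 165, 171 and 171 CPM and 270.4, 248 and 232 CPM (log2FC = 0.57 ± 0.0895, FDR = 2.39e-06). Both were higher in every CSS library than in any FBS library. Under SNX631 the estimates were 0.37 (FDR = 5.44e-05) for MED12, -0.44 (FDR = 0.00590) for MED12L, 0.26 (FDR = 0.00697) for MED13 and 0.45 (FDR = 1.18e-04) for MED13L. In Rv1-Luc none of these 4 genes passed under vehicle, with MED12 at 60.0, 59.3 and 57.2 CPM in FBS and 61.2, 61.9 and 67.2 CPM in CSS (log2FC = 0.11 ± 0.0709, FDR = 0.367). These groups did not overlap.

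**Figure D3:**
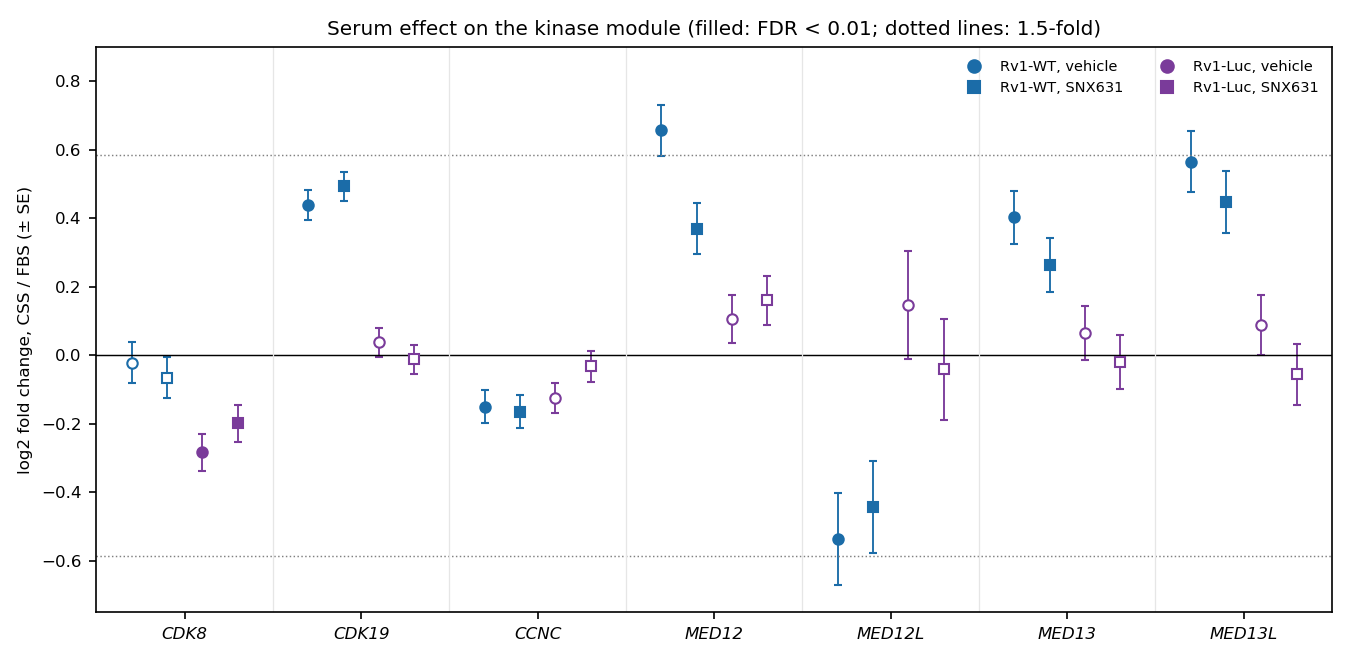
Log2 fold change of each module gene in CSS against FBS in Rv1-WT and Rv1-Luc under vehicle or SNX631. Points are edgeR estimates, bars 1 SE, filled symbols FDR under 0.01, and dotted lines 1.5-fold. Rv1-WT has filled symbols for every gene but CDK8, and Rv1-Luc for CDK8 alone; MED12 in Rv1-WT under vehicle lies at 0.66.

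The serum effects themselves were compared between the lines. The effect under vehicle was lower in Rv1-Luc than in Rv1-WT for CDK8 (-0.26, FDR = 0.00880), CDK19 (-0.40, FDR = 3.76e-07), MED12 (-0.55, FDR = 2.68e-05) and MED13L (-0.48, FDR = 0.00293), and higher for MED12L (0.68, FDR = 0.00719). MED13 missed the limit (-0.34, FDR = 0.0168) and passed without dKO-19M vehicle replicate 1 (-0.33, FDR = 4.02e-05), while CDK8 then missed it at FDR = 0.0101. The CDK8 difference held in 3 of 12 fits without 1 of the libraries compared (FDR up to 0.0592), missed the limit in DESeq2 (0.0123), and with thinned depths was -0.15 (FDR = 0.272). That of MED12L held in 6 of 12 such fits (FDR up to 0.0349) and missed the limit in DESeq2 (0.0142). That of MED13L was lost without Rv1-WT CSS vehicle replicate 1 (0.0147) and without Rv1-Luc FBS vehicle replicate 3 (0.0128), and those of CDK19 and MED12 held in all 12. For CCNC the difference was 0.02 (FDR = 0.818). The test of the difference passed for 5 of the 7 module genes and for 25.0% of all genes. Over all 8 such tests of a difference, those on SNX631 included, 9 of 56 module results passed (16.1%), against 5.35% of all genes.

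Transcript length moved with the serum effect in Rv1-WT, and CDK19, MED12, MED12L, MED13 and MED13L have transcripts of 6 kb or more. The median log2 fold change of all genes in CSS under vehicle was -0.04 for transcripts under 2 kb and 0.18 for those of 8 kb or more, and in Rv1-Luc it was at most 0.02 in every length class. Relative to the median of its own class, MED12 stood at 0.57, MED13L at 0.38, CDK19 at 0.35, MED13 at 0.22, CCNC at -0.12 and MED12L at -0.72. The direction of all 6 genes was the same on this scale, which was chosen after the data were seen. MED12L, itself over 8 kb, went against its class. The part of length in these results was not tested.

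**Figure D4:**
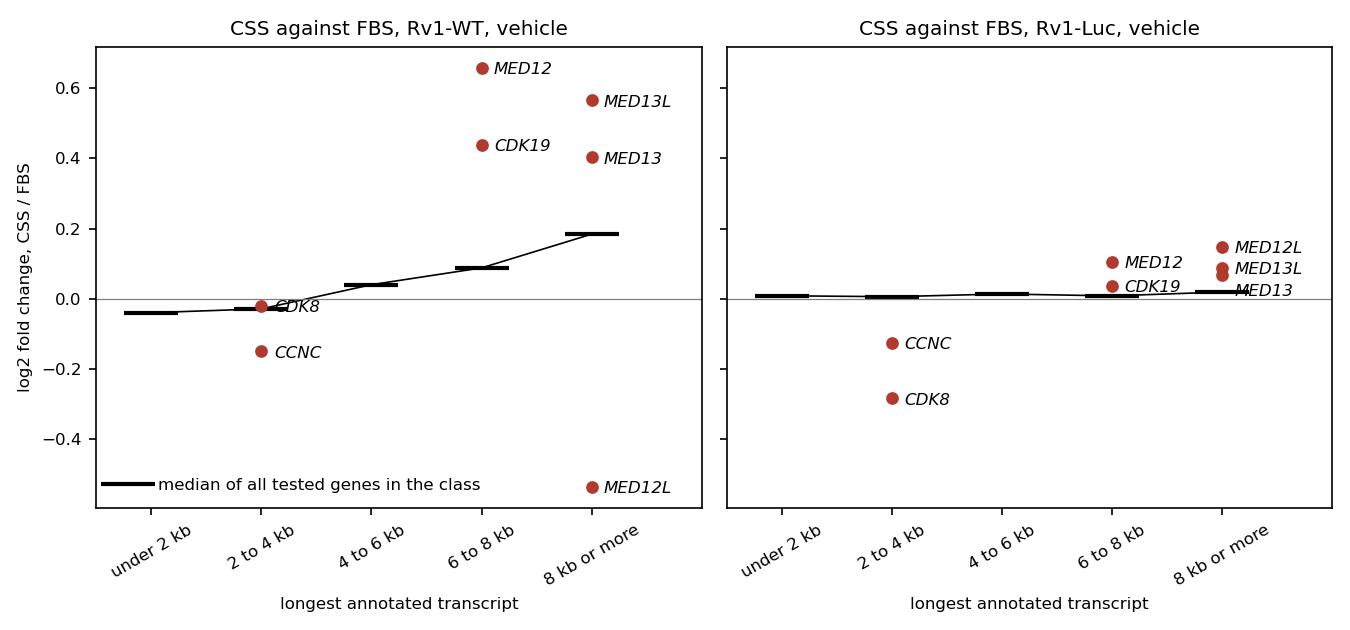
Log2 fold change in CSS against FBS under vehicle for the module genes (points) and the median of all genes tested in each class of longest annotated transcript (bars), in Rv1-WT and Rv1-Luc. In Rv1-WT the class medians go from -0.04 to 0.18, with MED12, CDK19, MED13 and MED13L above the median of their class and MED12L below it.

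The third comparison sets the dKO lines against the unedited lines, all in FBS under vehicle. The 4 comparisons with Rv1-WT share its 3 libraries, the 4 with Rv1-Luc share another 3, and each dKO group enters both. Editing, construct and line cannot be told apart here. Of 56 module results 38 passed (67.9%), while 50.1% of all genes passed over the 8 comparisons. Among the 38 are 4 results for CDK8 and 4 for CDK19 in lines that received that kinase, where the construct itself is counted. In single comparisons the background was 49.3%, 52.2%, 47.3% and 51.6% against Rv1-WT and 51.3%, 51.1%, 47.6% and 50.6% against Rv1-Luc, for dKO-8, dKO-8M, dKO-19 and dKO-19M in that order. CDK8 was above the unedited lines only where its own construct was present. It had 71.5, 67.4 and 67.1 CPM in dKO-8 and 125, 118 and 125 CPM in dKO-8M, against 26.6, 27.3 and 26.4 CPM in Rv1-WT and 29.7, 28.3 and 27.5 CPM in Rv1-Luc (log2FC against Rv1-WT = 1.36, FDR = 2.07e-30, and 2.20, FDR = 1.9e-41). In dKO-19 it had 26.1, 28.2 and 28.9 CPM, which overlap both unedited lines. dKO-19M had 26.6, 27.4 and 27.49 CPM, which overlap Rv1-WT but lie below the lowest Rv1-Luc library at 27.52 CPM. Against Rv1-WT the log2FC was 0.05 (FDR = 0.474) and 0.02 (FDR = 0.779). The 95% interval of the first of these was -0.07 to 0.17. Against Rv1-Luc neither line passed. With library totals as scaling both passed as lower than Rv1-Luc, dKO-19 at -0.23 (FDR = 3.79e-04) and dKO-19M at -0.21 (FDR = 6.64e-04). In these lines the disrupted CDK8 gene was counted at about the level of the intact gene in Rv1-WT.

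CDK19 was likewise higher where its own construct was present, and was lower than in Rv1-WT where only the edited gene remained. It had 507, 519 and 505 CPM in dKO-19 and 298, 354 and 344 CPM in dKO-19M, against 149, 148 and 150.1 CPM in Rv1-WT (log2FC = 1.78, FDR = 1.13e-40, and 1.16, FDR = 1.16e-31). In dKO-8 it had 101, 103 and 105 CPM and in dKO-8M 124, 123 and 122 CPM (log2FC against Rv1-WT = -0.53, FDR = 9.24e-16, and -0.27, FDR = 2.41e-07). Against Rv1-Luc, with 112, 117 and 120.0 CPM, the same lines gave -0.17 (FDR = 6.08e-04) and 0.08 (FDR = 0.0995). The CDK19 level of dKO-8M was thus not separable from that of Rv1-Luc by the test, with an interval of -0.01 to 0.17. In bulk RNA, fewer cells that express a gene and less RNA per cell cannot be told apart.

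**Figure D5:**
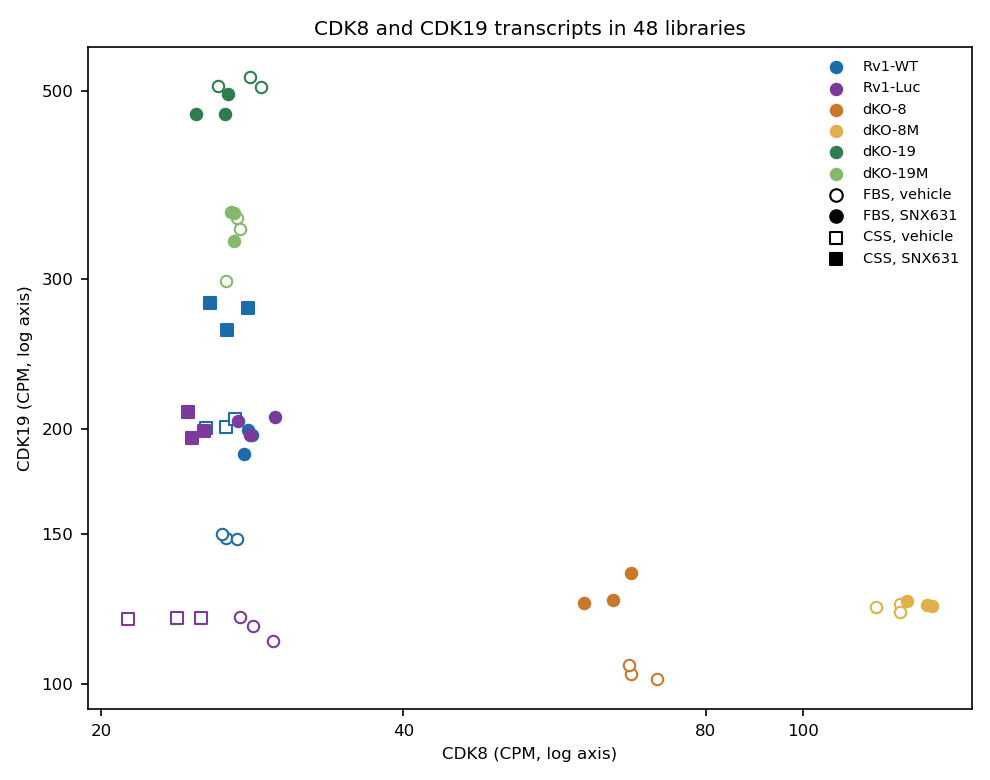
CDK8 (x axis) and CDK19 (y axis) in each of the 48 libraries, in TMM-scaled CPM on log axes, coloured by line, with circles for FBS, squares for CSS and filled symbols for SNX631. The libraries of dKO-8 and dKO-8M lie above 60 CPM of CDK8, those of dKO-19 and dKO-19M at 298 CPM of CDK19 or more, and the unedited lines between 21.3 and 29.8 CPM of CDK8.

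Among the other members, CCNC was lower and MED12 higher in all 8 comparisons, and MED12L separated the 2 unedited lines. CCNC had 48.1, 45.9 and 45.1 CPM in dKO-8M and 49.2, 50.2 and 50.4 CPM in dKO-8, and 65.6, 71.8 and 72.2 CPM in Rv1-WT. Its log2 fold change against Rv1-WT was -0.48 (FDR = 2.93e-13) in dKO-8, -0.59 (FDR = 1.8e-16) in dKO-8M, -0.19 (FDR = 5.86e-04) in dKO-19 and -0.39 (FDR = 1.77e-10) in dKO-19M. The decrease was larger than 1.5-fold in dKO-8M alone among these 4, and no dKO library reached the lowest Rv1-WT library. MED12 had 81.7, 83.2 and 86.9 CPM in dKO-8, 88.2, 89.8 and 95.9 CPM in dKO-8M and 88.3, 86.5 and 85.4 CPM in dKO-19. dKO-19M had 72.7, 94.8 and 90.0 CPM, where the library that stood apart is the low value. Every one of these libraries exceeded the 57.3, 51.3 and 50.3 CPM of Rv1-WT and the 60.0, 59.3 and 57.2 CPM of Rv1-Luc. The log2 fold changes of MED12 were 0.66 to 0.78 against Rv1-WT and 0.51 to 0.63 against Rv1-Luc, and without dKO-19M vehicle replicate 1 the value for dKO-19M against Rv1-Luc went from 0.54 to 0.65 (FDR = 1.66e-13).

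MED12L fell against Rv1-WT in all 4 dKO lines, from 8.94, 7.57 and 7.40 CPM to 3.22, 3.09 and 3.49 CPM in dKO-8, 4.77, 4.31 and 3.53 CPM in dKO-8M, 3.20, 2.57 and 2.58 CPM in dKO-19 and 1.56, 2.68 and 1.97 CPM in dKO-19M. The log2 fold changes were -1.28 (FDR = 1.22e-11), -0.90 (FDR = 3.73e-08), -1.52 (FDR = 1.41e-13) and -1.95 (FDR = 1.4e-17). Rv1-Luc itself had only 2.75, 2.98 and 2.63 CPM, and against it MED12L was 0.23 (FDR = 0.202) in dKO-8, 0.61 (FDR = 3.3e-04) in dKO-8M, -0.00 (FDR = 0.988) in dKO-19 and -0.44 (FDR = 0.0213) in dKO-19M. The rise in dKO-8M missed the limit without dKO-8M vehicle replicate 1 (0.50, FDR = 0.0103). For dKO-8M the direction thus depended on which unedited line was taken, and for MED13 the calls did: it fell against Rv1-WT in dKO-19 (-0.27, FDR = 0.00412) and dKO-19M (-0.37, FDR = 1.06e-04), and rose against Rv1-Luc in dKO-8 (0.43) and dKO-8M (0.47). The fall of MED13 in dKO-19 was lost without Rv1-WT FBS vehicle replicate 2 (FDR = 0.0187) or 3 (0.0107) and without dKO-19 vehicle replicate 1 (-0.21, FDR = 0.0383). MED13L rose in dKO-8M against both, by 0.33 (FDR = 0.00166) and 0.36 (FDR = 6.74e-04), calls that were lost with library totals as scaling (FDR = 0.0192 and 0.0218). Without dKO-19M vehicle replicate 1, MED13L also passed in dKO-8 and dKO-19 against both unedited lines, and MED13 in dKO-19 and dKO-19M against Rv1-Luc, while MED13 in dKO-19M against Rv1-WT gave -0.22 (FDR = 2.84e-04). Genes with transcripts of 8 kb or more had a median of 0.15 in dKO-8M against Rv1-Luc, and those under 2 kb -0.16. In dKO-19M against Rv1-WT these medians were -0.12 and 0.07, and in dKO-8 against Rv1-WT -0.01 and -0.03. The part of length was not tested.

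The fourth comparison sets each kinase-dead line against the line with the active kinase, which differ in 1 codon of the construct by design. They also differ in construct level under vehicle. Mean CDK8 was 68.7 CPM in dKO-8 and 123 CPM in dKO-8M, and mean CDK19 510 CPM in dKO-19 and 332 CPM in dKO-19M. Kinase activity, construct level and line thus cannot be told apart. Of 28 results 8 passed (28.6%), against 20.9% of all genes. Among the 8 are 2 results for CDK8 in dKO-8M and 2 for CDK19 in dKO-19M, where the construct itself is counted. For dKO-8M against dKO-8 the background was 21.8% under vehicle and 16.1% under SNX631. CDK8 itself was higher in dKO-8M under both, with 67.4, 64.7 and 60.5 CPM in dKO-8 and 133, 134 and 127 CPM in dKO-8M under SNX631 (log2FC = 1.03 ± 0.0449, FDR = 5.82e-27). CDK19, from the edited gene in both lines, was higher in dKO-8M under vehicle (log2FC = 0.26 ± 0.0441, FDR = 4.45e-06) but not under SNX631 (log2FC = -0.05 ± 0.0435, FDR = 0.493). Treated dKO-8 and treated dKO-8M overlapped in CDK19, and untreated dKO-8 lay below both. The other 5 genes did not pass in either treatment.

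For dKO-19M against dKO-19 the background was 24.0% under vehicle and 21.9% under SNX631. CDK19 was lower in dKO-19M under both, with 496, 470.2 and 469 CPM in dKO-19 and 333, 359 and 360.0 CPM in dKO-19M under SNX631 (log2FC = -0.45 ± 0.0408, FDR = 9.3e-14). Under vehicle the difference was -0.62, past 1.5-fold, and -0.56 (FDR = 5.21e-20) without the library that stood apart, which is under it. CCNC under vehicle had 59.6, 61.9 and 62.7 CPM in dKO-19 and 57.1, 53.0 and 50.1 CPM in dKO-19M (log2FC = -0.20 ± 0.0459, FDR = 3.81e-04), and under SNX631 the 2 lines had 54.5, 55.3 and 58.9 and 54.6, 57.3 and 57.3 CPM. The second pair overlapped, and the vehicle result missed the limit without dKO-19M vehicle replicate 3 (-0.16, FDR = 0.0126). MED12L under SNX631 had 4.02, 3.05 and 3.38 CPM in dKO-19 and 2.02, 1.78 and 2.61 CPM in dKO-19M (log2FC = -0.70 ± 0.170, FDR = 9.79e-04), a difference past 1.5-fold with no overlap. It missed the limit without dKO-19 SNX631 replicate 1 (-0.59, FDR = 0.0158) and without dKO-19M SNX631 replicate 2 (-0.57, FDR = 0.0180). MED13L was lower in dKO-19M under vehicle (log2FC = -0.33 ± 0.0880, FDR = 0.00299), and this rested on the library that stood apart, since without it the values were log2FC = -0.16 ± 0.0533, FDR = 0.0158. It was also lost without dKO-19 vehicle replicate 2 (FDR = 0.0112).

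The lines that carry CDK19 were also set against those that carry CDK8, under vehicle. Apart from the kinases themselves, CCNC was higher with CDK19 in both forms: 59.6, 61.9 and 62.7 CPM in dKO-19 against 49.2, 50.2 and 50.4 CPM in dKO-8 (log2FC = 0.30 ± 0.0469, FDR = 6.6e-07), and 57.1, 53.0 and 50.1 CPM in dKO-19M against 48.1, 45.9 and 45.1 CPM in dKO-8M (log2FC = 0.20 ± 0.0465, FDR = 3.64e-04). Neither pair overlapped, and the second missed the limit without dKO-19M vehicle replicate 1 (log2FC = 0.15 ± 0.0487, FDR = 0.0154). dKO-19M had less MED12L than dKO-8M (log2FC = -1.05 ± 0.154, FDR = 1.11e-07), past 1.5-fold, whereas for dKO-19 against dKO-8 the values were log2FC = -0.24 ± 0.162, FDR = 0.282. MED13 gave -0.24 (FDR = 0.0164) for the active forms and -0.39 (FDR = 1.07e-04) for the kinase-dead forms, and MED13L gave -0.47 (FDR = 5.07e-05) for the latter. Without dKO-19M vehicle replicate 1 these 3 values were -0.23 (FDR = 4.13e-05), -0.23 (FDR = 2.35e-04) and -0.29 (FDR = 1.69e-05). With all libraries, genes with transcripts of 8 kb or more had a median of -0.17 in dKO-19M against dKO-8M. Those under 2 kb had 0.10. MED12L, MED13 and MED13L are in the first class, and the part of length was not tested. Of 14 results 9 passed (64.3%), 4 of them for CDK8 and CDK19, while 26.1% of all genes did, with 23.8% in the first comparison and 28.5% in the second.

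Between the 2 unedited lines, most module results that passed were lower in Rv1-Luc. In FBS, 3 of 7 genes passed under vehicle, near the background of 41.8%, and 2 of 7 under SNX631, below the background of 41.9%. In CSS, 6 of 7 passed under vehicle (58.7%) and 6 of 7 under SNX631 (55.9%). Of 28 results 17 passed (60.7%), against 49.6% of all genes, and 16 of them were lower in Rv1-Luc (57.1%), against 26.1% of all genes lower. MED12L and MED13 fell in all 4 settings. MED13 in CSS under vehicle had 248, 242 and 229 CPM in Rv1-WT and 141, 130.4 and 143 CPM in Rv1-Luc (log2FC = -0.79 ± 0.0781, FDR = 3.04e-11), with no overlap. MED12L in the same cultures had 5.34, 6.07 and 5.18 CPM and 2.88, 3.52 and 2.91 CPM (log2FC = -0.83 ± 0.147, FDR = 1.56e-06). CDK19 was lower in Rv1-Luc in 3 of 4 settings, and in FBS under SNX631 the difference was 0.06 (FDR = 0.242). MED12 and MED13L passed as lower in Rv1-Luc in CSS under both treatments, MED13L with 270.4, 248 and 232 CPM in Rv1-WT and 173, 176 and 181 CPM in Rv1-Luc under vehicle (log2FC = -0.50 ± 0.0877, FDR = 6.03e-06). In FBS under vehicle they were 0.15 (FDR = 0.0874) and -0.03 (FDR = 0.830). The single result that was higher in Rv1-Luc was CCNC in CSS under SNX631 (log2FC = 0.14 ± 0.0470, FDR = 0.00755). That call held in 1 of 6 fits without 1 of its libraries (FDR up to 0.0581) and was lost with all genes kept (0.0183), thinned depths (0.0158) and only the compared libraries (0.0101). CDK8 passed in CSS under vehicle alone (-0.17, FDR = 0.00777) and held in 2 of 6 such fits (FDR up to 0.114). In CSS under vehicle, genes with transcripts of 8 kb or more had a median of -0.27 and those under 2 kb 0.15 in this contrast, and the part of length was not tested.

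The kinase module was set beside 2 other lists of the transcription machinery. Of the 26 subunits of core Mediator, which carries the module, 202 of 208 results under SNX631 did not pass. The 6 that did are 2.88%, against 9.69% of all genes over the same 8 comparisons. MED8, a head subunit, fell in 3 settings (Rv1-Luc in CSS at -0.24, dKO-8 at -0.24 and dKO-19 at -0.20), MED10 fell in dKO-8 (-0.35), MED25 rose in dKO-8 (0.17) and MED27 rose in dKO-19 (0.22). None of these 6 reached 1.5-fold, a limit that CDK19 passed in Rv1-Luc. Of the 11 other kinases and cyclins of transcription tested, 5 of 88 results passed under SNX631 (5.68%, against the same 9.69%), 2 higher and 3 lower. CDK13, a kinase of the elongation phase, fell in Rv1-WT in CSS (-0.26), as did MNAT1, a subunit of the CDK7 complex (-0.31). In CSS against FBS, 26 of 104 results of core Mediator passed (25.0%), 13 in each direction and all in Rv1-WT, against 20.6% of all genes, a share near the background. MED31 was the only one past 1.5-fold (log2FC = -0.69 ± 0.119, FDR = 2.31e-06 under vehicle).

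Finally, the genes whose levels followed each member most closely were listed, by Pearson's r of the log2 group means over the 8 groups of unedited lines among 14056 genes. These are descriptions over 8 points that share libraries, line and serum. PRICKLE2 (r = 0.994) and ARID5B (0.985), an AT-rich DNA-binding cofactor, were nearest to CDK19. KAT6A, a histone acetyltransferase (0.996), and ZNF208 (0.995) were nearest to MED13, and WASF2 (0.994) and ZNF16 (0.989) to MED13L. LINC01347 (0.986) and ANKHD1 (0.985) were nearest to MED12, CMTM8 (0.993) and MEX3D (0.992) to MED12L, and WSB2 (0.970) and ELAVL2 (0.968) to CCNC. INTS13 (0.953) and FLG-AS1 (0.921) were nearest to CDK8. Among the members, MED12 and MED13L had r = 0.889, MED13 and MED13L 0.805, and CDK19 and CCNC -0.840.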

How the data were processed

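RNA-Seq was done on 48 cultures of 22Rv1 and its derivatives, in 16 groups of 3 given by the sample labels. From total RNA, strand-specific libraries were prepared. The submitters' processing notes name FastQC, cutadapt 2.8, STAR 2.7.2b, featureCounts of Subread 2.0.3, and the builds GRCh38.p13 and GRCm39. The annotation release is not given in the sources used here. The authors deposited 1 table of estimated counts per gene (81.6% of the nonzero values whole), made from the aligned reads and not scaled; they were rounded to whole counts here.

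Computed here were TMM factors (0.911 to 1.07), CPM, and a single quasi-likelihood fit of the 16 groups over 20009 genes with 32 residual degrees of freedom (edgeR 4.0.16, limma 3.58.1, R 4.3.3; filterByExpr with a minimum count of 10 and total of 15; robust, two-sided). Benjamini-Hochberg adjustment was over all genes within each of 38 comparisons. Intervals are 95% intervals from the SE. The 2 transgenes in the table were left out. The fit was tested on simulated data. Alternatives were DESeq2 1.42.0, other scaling, filters and thinning, a replicate block, fits without single replicates and those given in the closing section. Every module gene was named, and genes of the other lists by the test. Lengths, positions and reference letters are from GENCODE v29, whose release may differ from that of the counts. The members and lists were chosen with earlier results of these data known.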

Additional observations from a re-analysis of the deposited data

Results flagged for a closer look

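In 9 of the 56 tests of whether 2 effects on a module gene differ, the difference passed FDR under 0.01 (16.1%), while 5.35% of all genes passed over the same 8 tests. In 4 of these the effect of SNX631 on CDK19 differed between settings. It was higher in Rv1-Luc than in Rv1-WT by 0.42 on the log2 scale in FBS and by 0.31 in CSS, and higher in dKO-8 than in dKO-8M by 0.30. Between dKO-19 and dKO-8 the difference was -0.41, dKO-19 being lower. In dKO-19 the construct is counted with the edited gene, so this difference does not compare the responses of the edited gene.

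The other 5 are differences between Rv1-Luc and Rv1-WT in the effect of CSS under vehicle, taken as Rv1-Luc minus Rv1-WT. They were -0.26 for CDK8, -0.40 for CDK19, -0.55 for MED12, -0.48 for MED13L and 0.68 for MED12L. The value for MED12L was the only one of the 9 past 1.5-fold. Those of CDK19 and MED12 held in all 12 fits without 1 of the libraries compared, that of MED13L in 10, MED12L in 6 and CDK8 in 3. The CDK8 difference also missed the limit in DESeq2 (FDR = 0.0123) and in the fit of 47 libraries (0.0101), and was -0.15 (FDR = 0.272) with depths thinned to 1 level.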

How the results depend on the processing

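Of 266 module results, 100 passed FDR under 0.01, and no result reversed its direction while passing under any alternative. Results that passed numbered 5 for SNX631, 14 for serum, 8 for kinase-dead against active kinase, 38 for dKO against unedited lines, 17 for Rv1-Luc against Rv1-WT, 9 for CDK19 against CDK8 lines and 9 for differences between effects. In that order, 9.69%, 20.6%, 20.9%, 50.1%, 49.6%, 26.1% and 5.35% of all genes passed. The counts for kinase-dead, dKO and CDK19 against CDK8 lines include the introduced kinases. Pooled shares of all genes were not computed for the alternatives below. Requiring the change itself to exceed 1.5-fold in the test (glmTreat) left 2, 0, 2, 12, 4, 4 and 0 of the module results. For SNX631 the number was 11 at FDR under 0.05, and 10 each with all genes kept, with only the libraries compared in the fit, and in the fit of 47 libraries without dKO-19M vehicle replicate 1, which was chosen after the data were seen. That fit gave 13 for serum, 7 for kinase-dead lines, 44 for dKO lines, 17 for Rv1-Luc, 9 for CDK19 against CDK8 lines and 10 for differences. Leaving out 1 replicate at a time, with only the comparisons that use it recomputed, gave 5 in each case for SNX631, 11 to 14 for serum, 7 to 9 for kinase-dead lines, 37 to 39 for dKO lines, 16 to 17 for Rv1-Luc, 8 to 9 for CDK19 against CDK8 lines and 6 to 10 for differences. Past 1.5-fold as well, the numbers were 2, 1, 4, 20, 7, 5 and 1, with leave-one-out ranges of 2, 1 to 2, 3 to 5, 19 to 21, 6 to 7, 5 and 0 to 2. Of all genes, 2.45%, 5.43%, 6.71%, 23.4%, 23.9%, 6.85% and 1.77% passed both limits. Of the module results past both limits, glmTreat left 0 for serum, 2 for kinase-dead lines, 12 for dKO lines, 4 for Rv1-Luc and 0 for differences. Scaling by library totals alone gave 2 for serum. The single difference past 1.5-fold was lost (0) with all genes kept, with depths thinned to 1 level, with only the libraries compared, and in DESeq2. For these changes the cause was not tested. Of the 100 calls, 17 were lost in at least 1 fit without a single replicate, 14 with only the libraries compared, 9 with all genes kept, 8 each with library totals and thinned depths, and 4 in the fit of 47 libraries. DESeq2 lost 5 and gained 4 of the 266 calls, and its size factors in edgeR lost 2. Replicates with the same number did not deviate together (r between -0.110 and 0.209), and a replicate block changed none of the 266 calls. Depth limits MED12L, at 38 to 152 counts per library, and 3 replicates per group limit changes much under 1.5-fold.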
